A study of Oryza sativa with 6 samples.

Results

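The genes described here are 10 rice genes whose products loosen or remodel the growing cell wall. They are the alpha expansins EXP1, EXP2, EXP3 and EXP4, the beta expansins EXPB2, EXPB3, EXPB4, EXPB6 and EXPB7, and the xyloglucan enzyme gene XRT5, also listed as XTH8. The members are the probe sets that the array's annotation assigns to a single gene with that symbol or synonym. This gave 10 probe sets, 1 for each gene, of 57381 probe sets on the array. mRNA levels were measured on Affymetrix rice arrays in leaves of 30-day seedlings of the transgenic line KMD (3 arrays) and of its untransformed parent XS11, the cultivar Xiushui 11 (3 arrays). Both lines share the Xiushui 11 background, and the series set out to find differentially expressed genes that bear on unplanned changes in KMD. From general knowledge and not from the labels, KMD is an insect-resistant rice with a Bacillus thuringiensis cry1Ab transgene. KMD is a single transgenic line. How many plants went into each biological replicate is not given, so the tests measure only the spread between these samples.

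Expansins are wall proteins that let cellulose and matrix polymers slip past each other under turgor, at acidic pH and without cutting the polymers. Alpha expansins are the classical form, and beta expansins are a family that is large in grasses, with members in vegetative tissue and others in pollen. Xyloglucan endotransglucosylase/hydrolases (XTH) cut xyloglucan chains and rejoin them to other chains, and grass walls hold less xyloglucan than those of most dicots. In rice, expression of several expansins has been linked to internode elongation, and XTH8 has been described as induced by gibberellin in growing leaf tissue.

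XRT5 was higher in KMD leaves, and the 6 member expansins bright enough to test were all lower. Across the array, 18.1% of tested probe sets were called higher in KMD and 21.7% lower, at a limma adjusted p under 0.05. The members were chosen with results of these data known. XRT5 stood at 3.00 times its XS11 level (ratio of mean signals, n = 3 each). EXP2, EXPB3 and EXPB4 stood at 51.2%, 55.5% and 51.2% of their XS11 levels, and EXPB2, EXPB7 and EXPB6 at 73.7%, 72.7% and 71.4%. The alpha expansins EXP1, EXP3 and EXP4 were dim in both lines. The signal is a MAS5 intensity on a linear scale, 1 value for each probe set and array. In RNA from leaves, fewer cells of a type and less RNA per cell cannot be told apart.

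**Figure D1:**
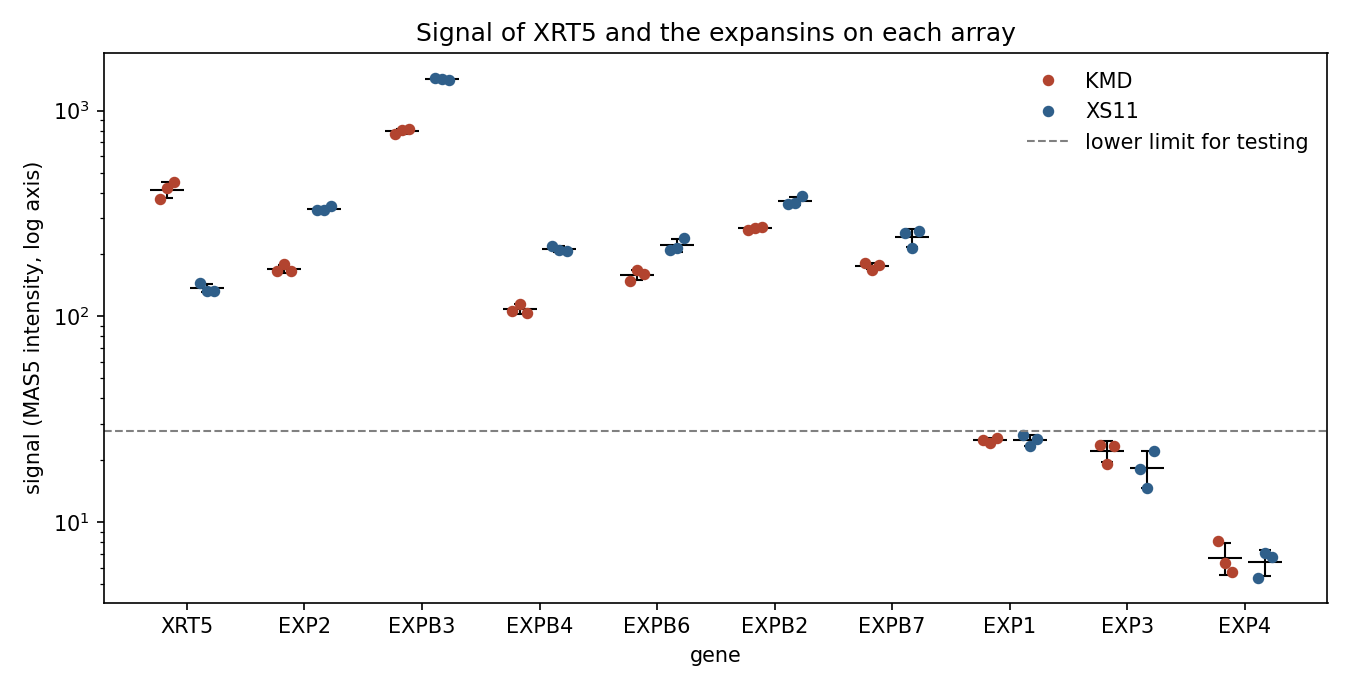
Signal (MAS5 intensity, log axis) of each gene on each array, KMD in red to the left and XS11 in blue to the right, with the mean as a black bar and the SD as its error bar. The 3 KMD arrays of XRT5 lie above the 3 XS11 arrays, those of 6 expansins lie below, and EXP1, EXP3 and EXP4 lie under the dashed lower limit for testing.

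The xyloglucan enzyme gene XRT5 read 372, 419 and 448 on the KMD arrays, against 145, 134 and 134 on the XS11 arrays. The lowest KMD array was thus well above the highest XS11 array. Its mean signal was 413 ± 38.6 in KMD and 137 ± 6.75 in XS11 (SD, n = 3 each). Differences were computed on the log2(signal + 11.17) scale, with the 10th percentile of all values (11.17) as the pseudocount. The log2 difference was 1.51 (SE 0.07, KMD minus XS11), with a 95% interval of 1.37 to 1.65. The adjusted p was 1.02e-09 in limma with p-values adjusted over the 34355 tested probe sets by the Benjamini-Hochberg method. Of these probe sets, 18.1% were called higher in KMD, and 0.282% (97 probe sets) had a difference at least as large in that direction. XRT5 varied more among the KMD arrays (coefficient of variation 9.35%) than among the XS11 arrays (4.91%).

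Among the 4 alpha expansins, EXP2 was the only member bright enough to test. It read 167, 179.6 and 166 in KMD leaves, against 330.1, 327 and 342 in XS11 leaves. The lines did not overlap, and the means were 171 ± 7.73 in KMD and 333 ± 7.81 in XS11 (SD, n = 3 each). The log2 difference was -0.92 (SE 0.05, limma adjusted p = 9.86e-09), with a 95% interval of -1.03 to -0.81. Of all tested probe sets, 1.505% (517 probe sets) were at least as far below in KMD.

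The other 3 alpha expansins lay under the filter, which kept the upper 60% of mean log2 signal and corresponds to a signal of about 27.7. EXP1 read 25.01, 24.2 and 25.7 in KMD and 26.4, 23.4 and 25.3 in XS11. EXP3 read 23.8, 19.1 and 23.4 in KMD and 18.2, 14.7 and 22.1 in XS11. The arrays of both lines overlapped for each of these genes. EXP4, which has been studied in rice for its part in seedling and internode growth, read 8.06, 6.35 and 5.74 in KMD and 5.38, 7.10 and 6.75 in XS11. All 6 values of EXP4 lie under 11.17, among the dimmest 10% of all values, and detection calls were not used here. When the fit was run without the filter, the log2 differences were -0.0023 for EXP1 (95% interval -0.19 to 0.18), 0.18 for EXP3 (-0.05 to 0.40) and 0.02 for EXP4 (-0.16 to 0.21). The limma adjusted p of these was 0.992, 0.289 and 0.901. In linear signal, EXP3 stood at 120.4% of its XS11 level with a coefficient of variation of 20.2% among the XS11 arrays, a spread as wide as the difference.

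All 5 beta expansins were tested and all 5 were lower in KMD, where 21.7% of all tested probe sets were called lower. The lowest value of any of them on any array was 104, so none passed the filter through XS11 alone. EXPB3 read 768, 801 and 809.7 in KMD, against 1439.8, 1429 and 1415 in XS11. Its lines stood far apart for their spread, with coefficients of variation of 2.77% in KMD and 0.880% in XS11. The log2 difference was -0.84 (SE 0.04, 95% interval -0.92 to -0.76, limma adjusted p = 6.51e-10). EXPB4 read 107, 115 and 104 in KMD, against 221, 209 and 207 in XS11. This is a difference of -0.90 on the log2 scale (SE 0.06, 95% interval -1.03 to -0.77, limma adjusted p = 5.93e-08). EXPB4 is read by a probe set of the type s_at and EXPB3 by an a_at, which can take signal from related genes or from other transcripts of the same gene.

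The other 3 beta expansins differed by less. EXPB2 read 264, 270.2 and 273 in KMD and 353, 358 and 384 in XS11. EXPB6 read 149, 167 and 159.9 in KMD and 211, 215 and 239.8 in XS11. EXPB7 read 182, 169 and 178 in KMD and 253, 215 and 259 in XS11. In all 3 genes every KMD array lay below every XS11 array, and in EXPB7 the nearest pair was 182 in KMD against 215 in XS11. The log2 differences were -0.42 for EXPB2 (SE 0.05), -0.46 for EXPB6 (SE 0.06) and -0.43 for EXPB7 (SE 0.07). Their limma adjusted p was 8.60e-06, 5.86e-05 and 0.00017. Changes of this size were more common in these data than those of EXP2, EXPB3 and EXPB4: 8.11%, 7.15% and 7.83% of all tested probe sets were at least as far below in KMD. In limma's test against a change of 1.2-fold, EXPB7 did not pass (adjusted p = 0.103), while EXPB2 (0.024) and EXPB6 (0.041) did. That test called 7.47% of tested probe sets lower.

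**Figure D2:**
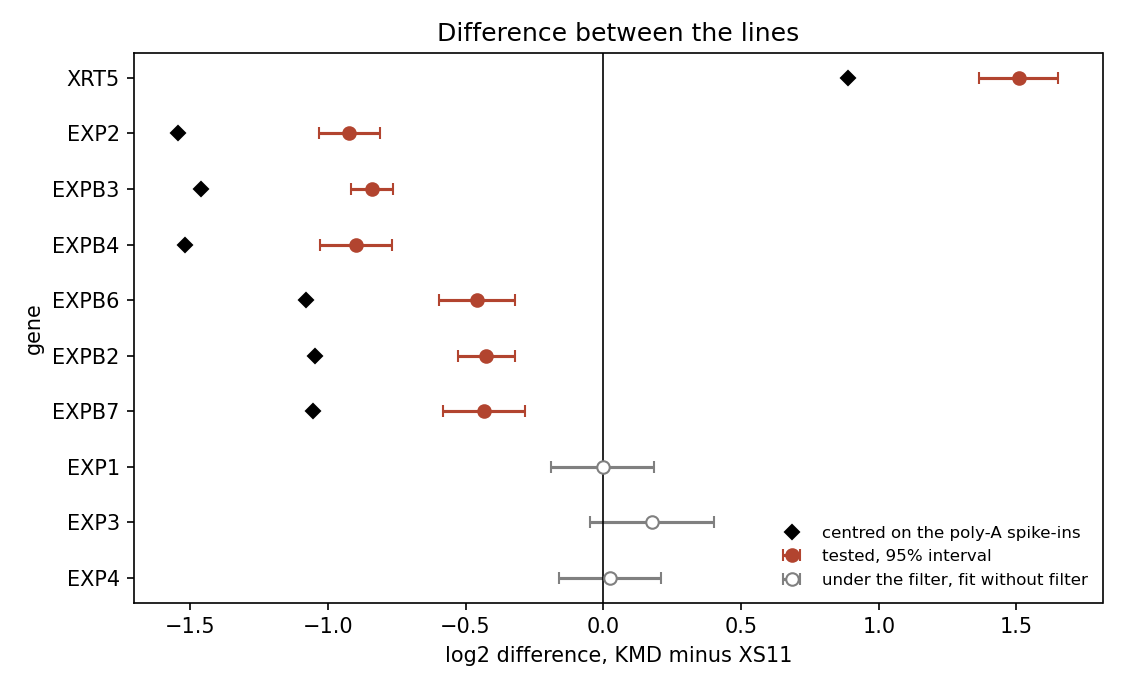
Log2 difference (KMD minus XS11) of each gene with its 95% interval, filled for tested genes and open for the 3 genes under the filter, and as black diamonds after centring on the poly-A spike-ins. XRT5 lies at 1.51 and the 6 tested expansins between -0.92 and -0.42, while the intervals of EXP1, EXP3 and EXP4 cross 0.

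Of the 10 members, 1 gene was called higher (XRT5), 6 were called lower, and 3 were not tested. Of all tested probe sets 39.8% were called in either direction. The lines did not overlap in 7 of the 7 tested members, against 48.9% of all tested probe sets. They overlapped in the 3 members under the filter. The median log2 difference was -0.65 over the 6 tested expansins and 0.0017 over all tested probe sets. The members were chosen with results of these data known, so these counts describe them and do not set them apart from other genes.

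**Figure D3:**
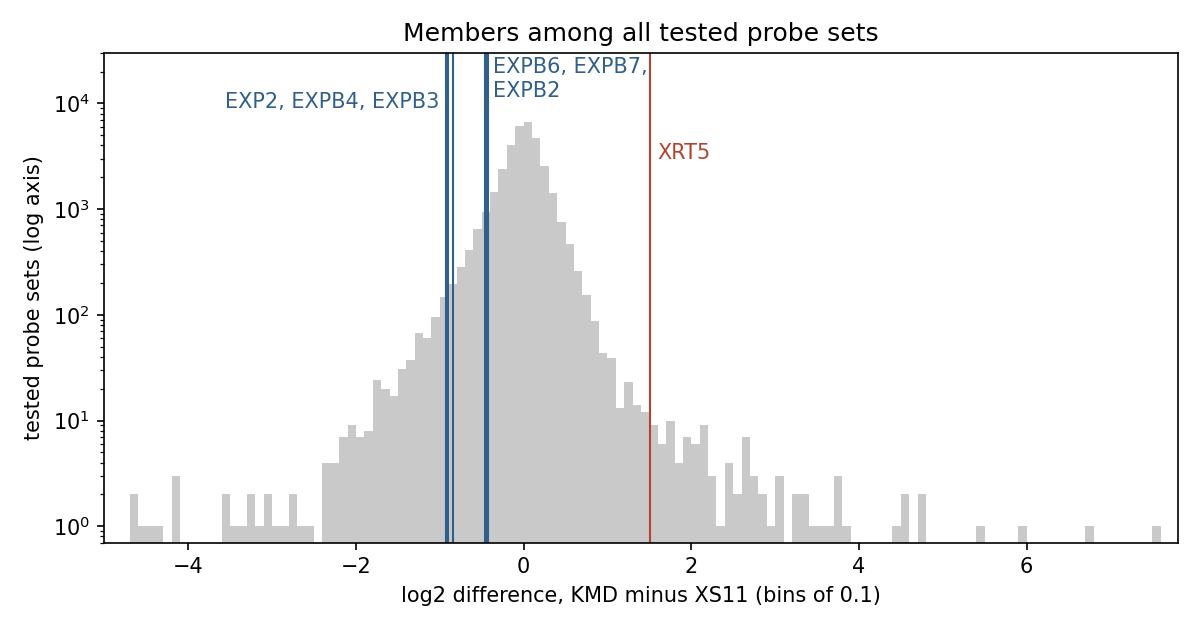
Number of tested probe sets (log axis) by log2 difference, KMD minus XS11, in bins of 0.1. The red line marks XRT5 at 1.51, where few probe sets lie, and the blue lines mark the 6 tested expansins, which fall in 2 sets near -0.9 and near -0.4.

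Each of these values depends on how the arrays were brought to a similar level. The poly-A spike-ins, transcripts added to the RNA before labelling and read by 36 probe sets, averaged 8.31, 8.37 and 8.18 on the log2 scale in KMD and 7.73, 7.62 and 7.64 in XS11, a difference of 0.62. Centring on them put XRT5 at 0.89, EXP2 at -1.54, EXPB3 at -1.46, EXPB4 at -1.52, EXPB6 at -1.08, EXPB7 at -1.05 and EXPB2 at -1.05, and it moved the median of all tested probe sets to -0.62. All 7 genes kept their direction and their call, on a scale where 94.7% of tested probe sets were called lower and 0.943% higher. The ratio of 3' to 5' signal of the actin control, which reflects how intact and how fully labelled the RNA was, was 5.64 to 5.91 in KMD and 4.30 to 4.88 in XS11, and that of GAPDH 3.44 to 3.54 in KMD and 2.61 to 2.99 in XS11. The ubiquitin ratio was also higher in KMD (1.15 to 1.199) than in XS11 (0.958 to 1.01), and the cyclophilin ratio was lower (0.840 to 0.955 in KMD and 1.01 to 1.0995 in XS11). Whether the 3' to 5' ratios had a part in the members' differences was not tested. Log2 signals correlated at 0.995 to 0.997 between arrays of the same line and at 0.973 to 0.976 between the lines, across the tested probe sets.

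The ratio of 2 genes on the same array does not depend on the overall level of that array, so it shows whether both changed alike. The ratio of XRT5 to EXP2 was 2.23, 2.33 and 2.70 in KMD and 0.440, 0.408 and 0.391 in XS11, a 5.85-fold change between the lines. The ratio of XRT5 to each of the 6 tested expansins was higher on every KMD array than on every XS11 array, by 2.02 to 2.55 on the log2 scale of the signal without a pseudocount. Of the ratios of XRT5 to every other tested probe set, 99.8% did not overlap between the lines, so this separation holds against nearly any gene of the array. Each of these 6 comparisons gave p = 0.1 in a two-sided exact permutation test, the smallest that 3 arrays against 3 allow, and 0.124 after Benjamini-Hochberg adjustment over the 21 pairs of tested members.

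The size of the difference varied among the beta expansins. EXPB6, EXPB2, EXPB3 and EXPB4 follow each other directly, in this order, in the RefSeq annotation of assembly ASM3414082v1, with no other annotated gene between them. Positions are left out because the values come with no genome build. The adjacent genes EXPB6 and EXPB2 stood at 71.4% ± 4.12 and 73.7% ± 1.19 of the XS11 mean in KMD, and the adjacent genes EXPB3 and EXPB4 at 55.5% ± 1.54 and 51.2% ± 2.73 (SD, n = 3).

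The ratio of EXPB2 to EXPB3 was 0.344, 0.338 and 0.337 in KMD, against 0.245, 0.2502 and 0.272 in XS11, a 1.33-fold change. The ratio of EXPB2 to EXPB6 was 1.77, 1.62 and 1.70 in KMD, against 1.67, 1.66 and 1.603 in XS11, and these values overlap. The ratio of EXPB3 to EXPB4 was 7.19, 6.94 and 7.75 in KMD, against 6.52, 6.83 and 6.83 in XS11, a 1.08-fold change without overlap. In the gene order, the step from the smaller to the larger difference lay between EXPB2 and EXPB3. The type of probe set changes at the same place, from plain at for EXPB6 and EXPB2 to a_at for EXPB3 and s_at for EXPB4. Whether signal shared with related genes had a part in this step was not tested. The exact permutation p was 0.1 for EXPB2 to EXPB3 and for EXPB3 to EXPB4, and 0.4 for EXPB2 to EXPB6. As 0.1 is the smallest p that 3 arrays against 3 allow, no ratio could pass this test at 0.05. A gap between the lines is common in such ratios, since ratios to all other tested probe sets showed one in 83.9% of cases for EXPB2, 84.2% for EXPB6, 97.1% for EXPB3 and 97.9% for EXPB4.

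The ratio of the alpha expansin EXP2 to the beta expansin EXPB4 was nearly the same in both lines. It was 1.56, 1.56 and 1.59 in KMD and 1.49, 1.56 and 1.65 in XS11, with a log2 difference of 1.51e-05 and an exact permutation p of 1. EXPB7 is not in the run of 4 neighbouring genes. The ratio of EXPB2 to EXPB7 overlapped between the lines, at 1.46, 1.599 and 1.54 in KMD and 1.39, 1.67 and 1.49 in XS11 (exact permutation p = 0.9). Over all 15 expansin pairs, 11 ratios did not overlap between the lines, with differences of up to 0.53 on the log2 scale. The ratios of EXP2 and of EXPB7 to all other tested probe sets did not overlap in 98.1% and 76.4% of cases.

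**Figure D4:**
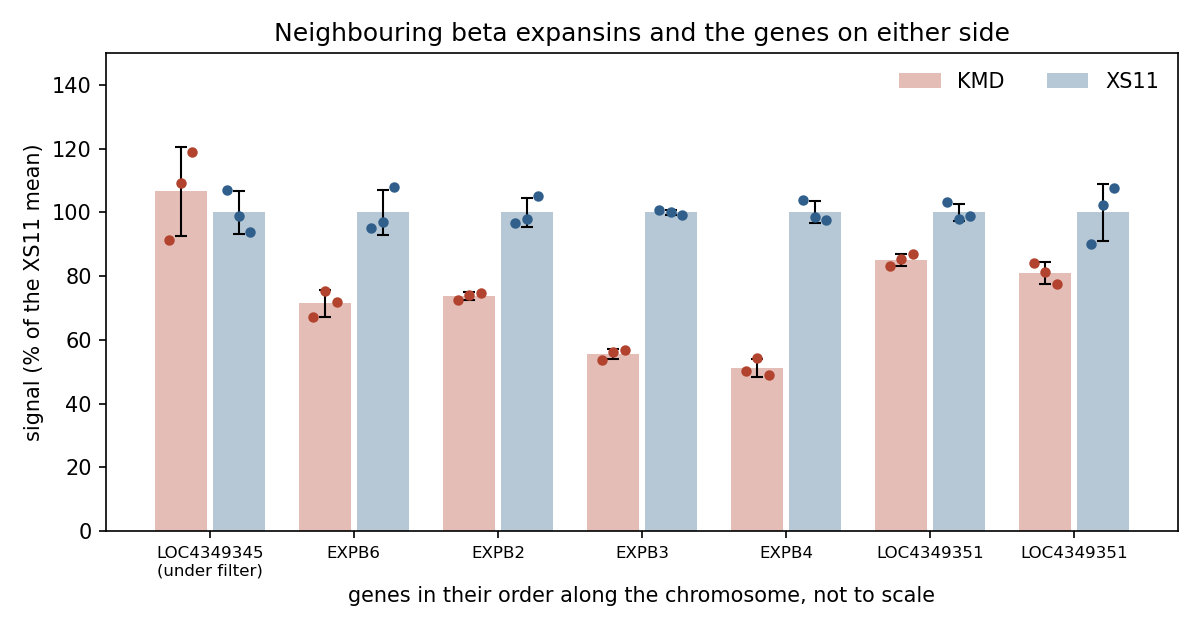
Signal as a percentage of the XS11 mean for EXPB6, EXPB2, EXPB3 and EXPB4 and for the genes on either side, in their order along the chromosome and not to scale, with KMD in red left of XS11 in blue. Bars are means, error bars the SD of 3 arrays and points the arrays, and LOC4349351 is shown by each of its 2 probe sets. EXPB6 and EXPB2 stand above 71% and EXPB3 and EXPB4 below 56%.

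The genes on either side of the run were looked at after the values of the run were known. LOC4349345, next to EXPB6, was under the filter and overlapped between the lines, at 106.6% ± 13.96 of the XS11 mean in KMD. LOC4349351, next to EXPB4, is read by 2 probe sets, which gave log2 differences of -0.23 and -0.29 (limma adjusted p = 8.01e-05 and 0.0023). It was thus lower in KMD too, by less than any of the 4 expansins.

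Other expansins with a probe set on the array numbered 20, of which 10 were tested. Of these 10, 0 were called higher, 2 lower and 8 were not called, so that their share of lower calls was near the 21.7% of all tested probe sets, and their median log2 difference was -0.01. The beta expansin EXPB11 fell by 0.76 on the log2 scale (103 ± 6.40 in KMD and 181 ± 4.36 in XS11, SD, n = 3 each, limma adjusted p = 4.59e-07). The alpha expansin EXP10 fell by 0.43 (113 ± 13.4 in KMD and 156 ± 5.69 in XS11, limma adjusted p = 0.00044). The expansin-like genes EXLA1 (0.09), EXLA3 (-0.16) and EXLA4 (-0.01) were not called. EXLA2 was not called by its brighter probe set (0.02), while its dimmer probe set gave 0.34 (limma adjusted p = 0.0057 in the fit without filter).

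Named genes of xyloglucan metabolism were few, and no other XTH gene carries its name in the tables used here. The CSLC genes encode glycan synthases that are linked to the xyloglucan backbone. Of the 4 tested, CSLC2 (-0.39, limma adjusted p = 0.00098) and CSLC1 (-0.28, adjusted p = 0.0036) were lower in KMD. CSLC7 (-0.09) and CSLC3 (0.05) were not called. Of the 5 tested genes of this list, XRT5 was the 1 called higher, and it was chosen with results of these data known. Of all tested probe sets, 18.1% were called higher and 21.7% lower.

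Genes that build the wall were mostly lower. All 8 tested cellulose synthase genes were called lower, with CESA3 at -1.37, CESA1 at -1.03 and CESA8 at -0.89. The smallest of these changes, CESA9 at -0.25, lay near the threshold (limma adjusted p = 0.046, and 0.062 in the fit without filter). A second probe set of CESA3 gave -1.13, and that of CESA1, under the filter, gave -0.22. Of 10 tested cellulose synthase-like genes outside the CSLC group, 6 were lower and 1 was higher. CSLE2, among the 6, was called by its brightest probe set (-0.30). Its other tested probe sets gave -0.27 and -0.09 (limma adjusted p = 0.088 and 0.647 in the fit without filter). CSLD2, of a family linked to tip growth, stood at -0.94, and CSLF6, the main synthase of mixed-linkage glucan in grasses, at -0.64. Of the other probe sets of CSLF6, 1 was tested and gave -0.06 (limma adjusted p = 0.728 in the fit without filter) and 1 lay under the filter at 0.04, so the value of -0.64 rests on 1 of its 3 probe sets. Of 7 tested family GH9 endoglucanase genes, which cut beta-1,4-glucans, 4 were lower and 0 higher, with GLU11 at -1.18, GLU2 at -0.72 and GLU10 at -0.43. The pectin list had 1 tested gene, the pectin methylesterase inhibitor gene PMEI28 (-0.62, lower). Of 9 tested genes of wall structure, 6 were lower and 1 higher, with TBL11 at -1.08, TBL6 at -0.61 and TBL15 at -0.57. The other probe set of TBL15 went the other way (0.29, limma adjusted p = 0.011 in the fit without filter), and that of TBL6 lay under the filter at -0.08. These counts use the brightest tested probe set of each gene, and limma's p adjusted over all of the tested probe sets, of which 21.7% were called lower and 18.1% higher.

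**Figure D5:**
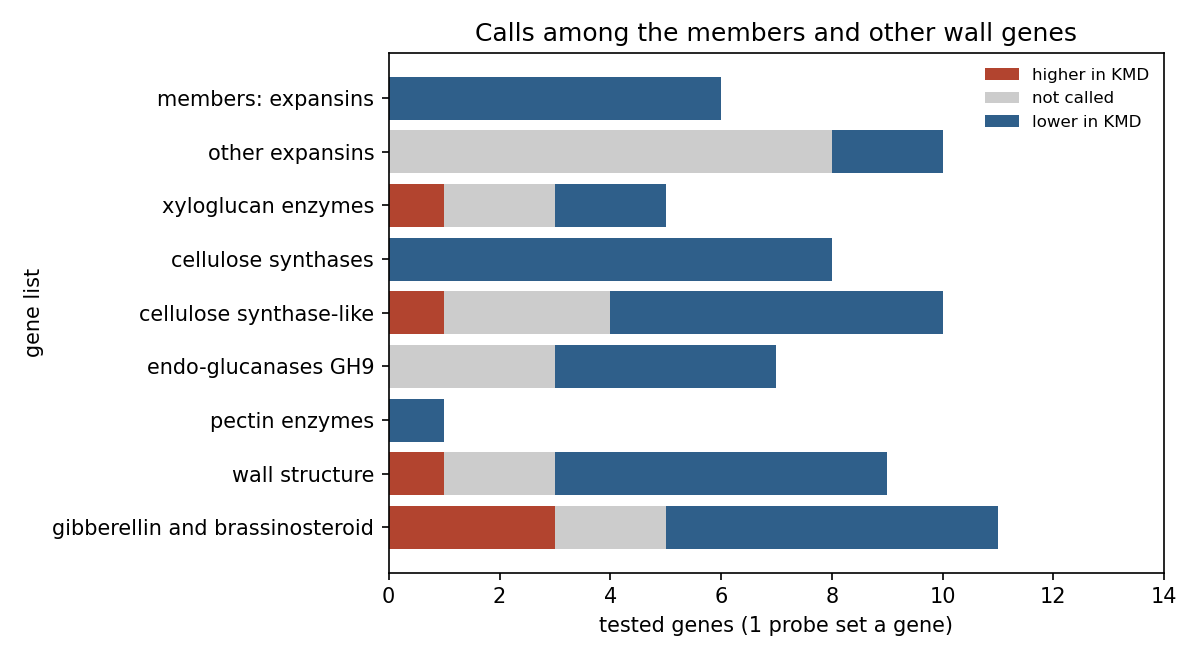
Tested genes of each list by call, higher in KMD in red, not called in grey and lower in KMD in blue, with 1 probe set for each gene. XRT5 is the 1 gene called higher in the xyloglucan list, and all 6 tested member expansins and all 8 cellulose synthases were called lower.

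Gibberellin and brassinosteroid are hormones known to act on expansin genes in rice. Of 11 tested genes of their synthesis and signalling, 3 were called higher, 6 lower and 2 were not called. Of all tested probe sets, 18.1% were called higher and 21.7% lower. BRI1, the brassinosteroid receptor, stood at -0.74 (182 ± 3.07 in KMD and 311 ± 11.7 in XS11, SD, n = 3 each), the gibberellin 20-oxidase gene GA20OX3 at -0.45 and the gibberellin receptor gene GID1 at -0.39, with its other probe set under the filter at -0.09. Also called lower were SLR1 (-0.28), GAMYB (-0.23) and DWARF (-0.19). The genes called higher were D11 (0.34), BU1 (0.31) and GA20OX2 (0.20).

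Among genes with a name, the 3 whose profile over the 6 arrays was closest to that of XRT5 were CAD8C, ILL8 and CML31. The measure was the Euclidean distance of log2 signals centred for each probe set. CAD8C, of the cinnamyl alcohol dehydrogenase family, read 200.04, 215 and 235 in KMD and 65.1, 67.6 and 64.5 in XS11 (distance 0.141). ILL8, listed as an IAA-amino acid hydrolase-like gene, was at 0.285 and the calmodulin-like CML31 at 0.362. With 6 arrays in 2 lines, the distance mostly reflects the size of the difference between the lines, and 37 probe sets in all lay closer to XRT5 than CML31 did.

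The leaf label was set against marker genes, matched by name alone. Of 18 names of leaf mesophyll markers 6 were matched and 5 tested, of which 2 were lower and 0 higher. The 2 lower were LFNR1 (log2 difference -0.28, limma adjusted p = 5.41e-05) and RCA (-0.18, limma adjusted p = 0.00014). LHCP (0.03), CAB2R (-0.02) and the Rubisco small subunit gene RBCS (-0.009) were not called. RBCS read 16012 ± 112 in KMD and 16111 ± 304 in XS11, and 1 of its XS11 readings was itself the highest value on any array (16460). The summed signal of the matched genes was 56485 to 57165 in KMD and 59026 to 60048 in XS11. Of the 6 tested genes of the root list, LSI1 (-0.53), IRT1 (-0.50), HK3 (-0.37) and HK5 (-0.36) were lower and 0 higher. Of all tested probe sets, 21.7% were called lower and 18.1% higher. Its summed signal was 3576 to 3774 in KMD and 4190 to 4432 in XS11, with 1 of its 8 genes under 11.17 on all arrays. The brightest were RAC1 (1809 in KMD and 1913 in XS11, not called) and HK5 (1099 and 1409). These 8 genes came from 7 names, since RAC1 matched different genes. Of 3 tested genes of dividing and meristem cells, CYCB1-1 (0.42) and CDKB2-1 (0.32) were higher, and the sum was 320 to 326 in KMD and 256 to 285 in XS11. Of 2 tested genes of the pollen, anther or seed list, GLUA2 was higher (0.43, 716 ± 20.3 in KMD and 530 ± 9.35 in XS11). Its other probe set lay under the filter at -0.05, and RAG2 was not called (0.005). The sum was 768 to 795 in KMD and 592 to 607 in XS11, and most of it came from this 1 probe set of GLUA2. Of the 3 genes, 1 lay under 11.17 on all arrays. The part of these lists in the members' differences was not tested.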

How the data were processed

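Leaves of 30-day rice seedlings were profiled on 6 Affymetrix arrays, and the sample titles gave 3 to KMD and 3 to XS11. Per the labels, germination took 2 days at 28 °C, and growth followed under days of 16 h at 30 °C and nights of 8 h at 26 °C. RNA was extracted with Trizol and 6 µg was labelled with biotin, per the labels' protocols. The deposited values are intensity on a linear scale, from 1 to 16460. The submitters' processing notes name MAS5, with no version or scaling target. Median intensity lay between 35.5 and 38.6. The number of arrays limits the precision.

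Of 57381 probe sets, 123 are controls, 22436 have 1 gene in the platform annotation, 95 several and 34850 none here. Symbols and synonyms came from RefSeq's table for assembly ASM3414082v1, where each of the 17905 gene IDs had an entry.

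Values were used as log2(signal + 11.17), and this log2 scale, computed from the deposited intensity, understates changes at low signal. The fit took the upper 60% of probe sets by mean log2 signal without the controls, 34355 in all. KMD was set against XS11 by limma's lmFit and eBayes, with the intensity trend, as a two-sided test at a Benjamini-Hochberg adjusted p of 0.05. The fit was tested on simulated data. Every member was described with all its probe sets. From each further list, up to 3 genes past the threshold were named by size of change. CSLC7, CSLC3, CSLE2, CESA9, the EXLA genes, the other called gibberellin and brassinosteroid genes and further marker genes were named after their values were seen. Members and lists were chosen with earlier results of these data known. Alternatives were other pseudocounts, filters, normalizations and variance models, a test against a 1.2-fold change, the replicate number as a block, and leaving out each array. The analysis used limma 3.58.1 in R 4.3.3, and scipy 1.17.1, statsmodels 0.14.6, pandas 2.3.3, numpy 2.4.6 and matplotlib 3.10.9 in Python 3.11.15.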

Additional observations from a re-analysis of the deposited data

How the results depend on the processing

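The 7 tested members kept their direction under every alternative run, and their calls too except that of EXPB7 against a change of 1.2-fold (log2 difference -0.43). Leaving out 1 array at a time left 1 member called higher and 6 called lower. The same runs called 5256 to 6246 of all tested probe sets higher and 6607 to 7240 lower. They gave log2 differences of 1.45 to 1.58 for XRT5, -0.96 to -0.90 for EXP2, -0.86 to -0.82 for EXPB3, -0.94 to -0.87 for EXPB4, -0.45 to -0.39 for EXPB2, -0.49 to -0.40 for EXPB6 and -0.51 to -0.38 for EXPB7. Over all tested probe sets the calls were 6226 higher and 7440 lower. They became 324 higher and 32550 lower on the spike-in scale and 1536 higher and 2567 lower against a change of 1.2-fold. Quantile normalization turned the lean, to 7192 higher and 6772 lower, with XRT5 at 1.55 and EXP2 at -0.88. With the replicate number as a block, 1 member was called higher and 6 lower, and 5573 and 6875 of all tested probe sets. Arrays with the same number did not deviate together from their line means (correlations of -0.24, -0.01 and -0.26). Deviations from a mean of 3 arrays depend on each other, so this cannot exclude that samples with the same number were handled together. Reading every probe set of a gene changes nothing, as each member has 1. Scan dates and batches are not recorded in the labels, so line and batch cannot be told apart.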
